A study of Mus musculus with 6 samples.

Results

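The mRNA levels of 43 genes of the V-ATPase, the lysosome and autophagy were followed in the mouse hippocampus. The genes were chosen by symbol from the 23282 rows of the count files. All 43 were in the files, and all 43 were among the 12831 rows that passed the low-count filter. The study set hippocampi of PHF2 t/g mice beside those of wild types (WT), all of strain C57BL/6 and aged 16 weeks, with 3 hippocampal libraries per group. PHF2 is a Jumonji-family histone demethylase. The labels do not state the construct, its promoter, the sex of the mice or whether each library is a separate animal, so p-values here reflect library-to-library spread, which may be partly technical. RNA was read as 3′ end tags with the QuantSeq kit, in which a transcript gives about 1 tag whatever its length. Levels are therefore CPM (counts scaled to the library total, with TMM factors) and can be compared between genes without a length correction.

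The vacuolar ATPase (V-ATPase) is a rotary pump that acidifies lysosomes, endosomes and synaptic vesicles. Its V1 sector splits ATP in the cytosol, its V0 sector carries protons through the membrane, and accessory proteins help to assemble it. Lysosomes use the acid to run cathepsins, glycosidases and other hydrolases, and loss of many of these enzymes causes lysosomal storage disease of the brain. Autophagy delivers cytoplasm to lysosomes in vesicles whose membranes carry lipid-bound ATG8 proteins (the LC3 and GABARAP families). The transcription factor TFEB is known to bind E-box-like sites near the start of many lysosomal and autophagy genes.

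Libraries held 5512171 to 8844718 counts, and the TMM factors were 1.03 to 1.05 for PHF2 t/g and 0.955 to 0.978 for WT. The ribosomal RNA row Rn45s took 7.05% to 7.61% of counts in PHF2 t/g libraries against 8.20% to 9.89% in WT libraries. WT replicate 2 lay away from the other libraries in a multidimensional scaling, and PHF2 t/g replicate 1 was high in the choroid plexus gene Ttr. Another choroid plexus gene, Clic6, was at 15.9, 5.68 and 8.69 CPM in PHF2 t/g and 2.09, 3.64 and 2.87 in WT. Its log2 fold change was 1.79 (edgeR adjusted p = 0.0614), and neither Clic6 nor Ttr passed the test. Phf2 itself was at 38.7 ± 3.96 CPM in PHF2 t/g and 37.7 ± 1.92 in WT (SD, n = 3), and as the transgene's sequence is unknown here, this value does not check the label. The hippocampal neuron markers were present in every library, with none at 0. Their summed level was 7737 to 8636 CPM for PHF2 t/g and 9226 to 10194 for WT. By the test 1 of 6 was higher (Wfs1) and 0 lower, but 5 of 6 had log2 fold changes below 0, with a list median of −0.27. Of those 5, Camk2a (−0.27; edgeR adjusted p = 0.0978) and Nrgn (−0.26; edgeR adjusted p = 0.0987) had the smallest p. Markers of neighbouring regions and of other cell types also differed. Of 5 hypothalamic markers 3 were tested (Avp, Oxt and Trh), and all 3 were higher. Their summed level was 48.8 to 50.6 CPM in PHF2 t/g libraries against 1.14 to 2.72 in WT libraries. Avp was at 0 in WT replicate 3, Oxt in WT replicate 1 and the untested Hcrt in PHF2 t/g replicate 2. Hcrt and the also untested Pmch, with 16 and 26 counts in all, had lower means in PHF2 t/g. These were 0.276 against 0.508 CPM for Hcrt and 0.569 against 0.681 CPM for Pmch. The 6 tested of 7 striatal markers summed to 682 to 788 CPM against 518 to 595, with 3 higher. The untested Drd2 was at 0 in 4 libraries. The 4 tested of 5 leptomeningeal markers summed to 144 to 163 CPM against 71.2 to 98.0, with 1 higher (Mgp). The 5 endothelial markers summed to 111 to 117 CPM against 85.1 to 97.8, with 2 higher (Flt1 and Ly6c1), and no marker of either list was at 0. In each of the striatal, leptomeningeal and endothelial lists 1 tested gene had a log2 fold change below 0. These were Adora2a (−0.33), Dcn (−0.34) and Cldn5 (−0.59), none past the test. Among inhibitory neuron markers Gad2 was higher and Sst lower, and among oligodendrocyte markers Mag was lower. The part of tissue composition or of the Rn45s share in the results below was not tested. In bulk tissue, fewer cells of a type and less RNA per cell cannot be told apart.

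The 43 genes were well expressed. Their median level over the 6 libraries was 155 CPM, against 20.1 CPM for all 12831 tested genes, and 30 of 43 lay in the most abundant 20% of genes. The V-ATPase genes alone summed to 8128 ± 386 CPM in WT against 7302 ± 244 in PHF2 t/g (mean ± SD, n = 3), out of 12932 ± 580 and 11850 ± 288 for all 43. These sums were not tested between groups, and the most abundant genes weigh most in them. The median log2 fold change of the 15 V-ATPase genes was −0.03, and 0.08 with library size alone. Atp6v1b2, the B subunit that forms part of the ATP-splitting ring, was the most abundant at 1526 ± 95.8 CPM in WT. The autophagy gene Gabarapl1 came next at 1123 ± 92.0, followed by the accessory protein gene Atp6ap2 at 1049 ± 107, Atp6ap1 at 929 ± 53.8 and Atp6v0c at 878 ± 73.5. In WT these neighbours in the order overlapped in their library values, except that every library of Atp6v1b2 was above every library of Gabarapl1. The lowest were Cln3, a lysosomal membrane protein whose loss causes juvenile Batten disease, at 2.75 ± 0.865 CPM in WT, Atg7 at 9.08 ± 1.49 and Tfeb at 13.5 ± 1.36.

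**Figure D1:**
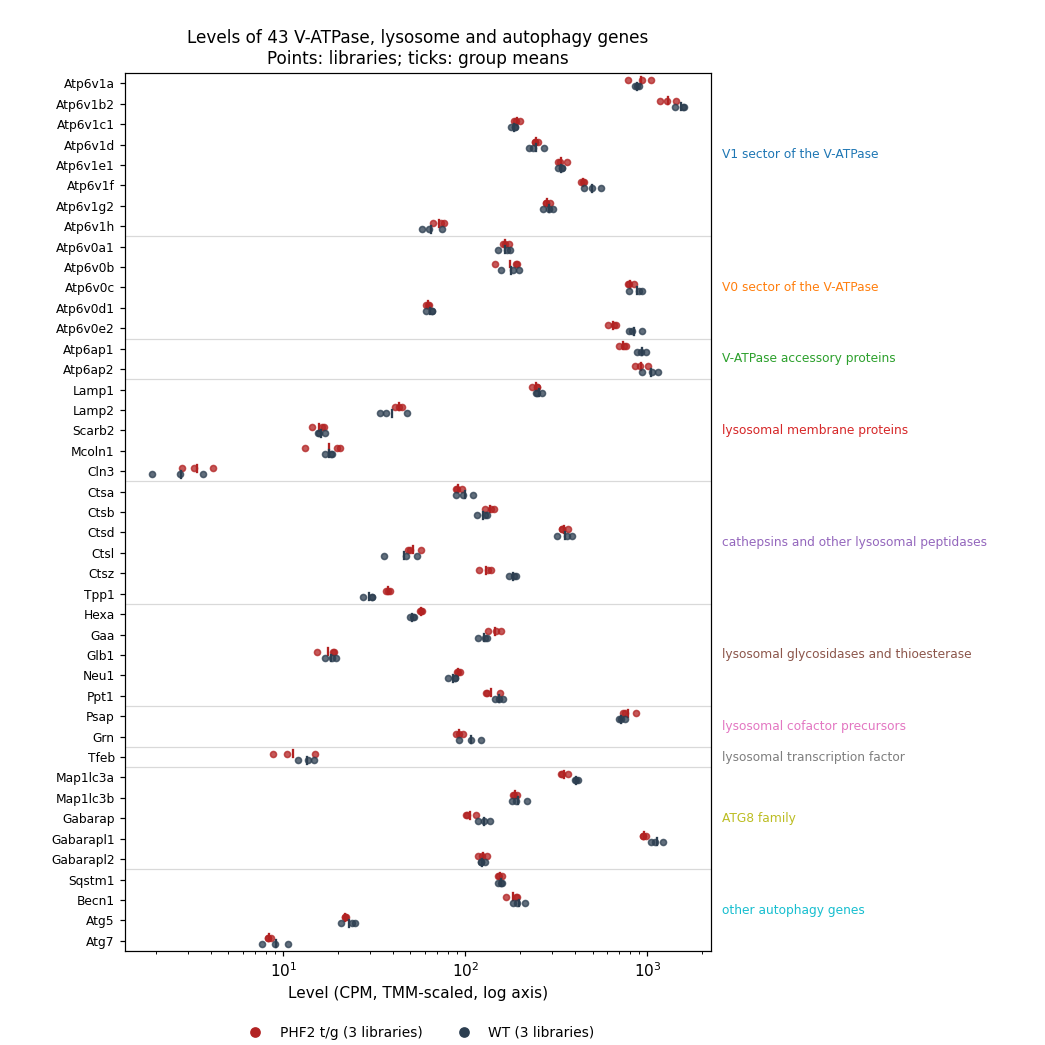
Level of each of the 43 genes in each library, as CPM on a log axis, grouped by role. Points are libraries (red PHF2 t/g, dark WT) and ticks are group means. Levels run from about 3 CPM for Cln3 to 1526 CPM in WT for Atp6v1b2, and the libraries of the groups overlap for 33 of 43 genes.

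Several pump subunits and the ATG8 proteins are each encoded by alternative genes, and the hippocampal tags came mainly from 1 gene of each V-ATPase family. Atp6v0e2, the brain-enriched form of the small membrane subunit e, gave 96.3% ± 0.598 of the subunit e tags in WT, against 95.1% ± 0.590 in PHF2 t/g (mean ± SD, n = 3). Its partner Atp6v0e gave 3.70% ± 0.598 and 4.93% ± 0.590. Subunit a, which anchors the proton path, came from Atp6v0a1 for 78.4% ± 1.77 in WT and from Atp6v0a2 for 19.7% ± 0.976. Subunit G came from Atp6v1g2 for 67.7% ± 0.783 and from Atp6v1g1 for 32.3% ± 0.783 in WT, with no count of Atp6v1g3 in any library. Atp6v1c1 gave 99.0% ± 0.161 of subunit C, and Atp6v1b2, Atp6v1e1 and Atp6v0d1 gave nearly all tags of their subunits. Among the ATG8 genes Gabarapl1 held the largest share in both groups, 56.7% ± 1.46 in WT and 55.7% ± 0.324 in PHF2 t/g. Map1lc3a followed with 20.7% ± 0.731 and 20.1% ± 0.419. These shares were not tested between groups.

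**Figure D2:**
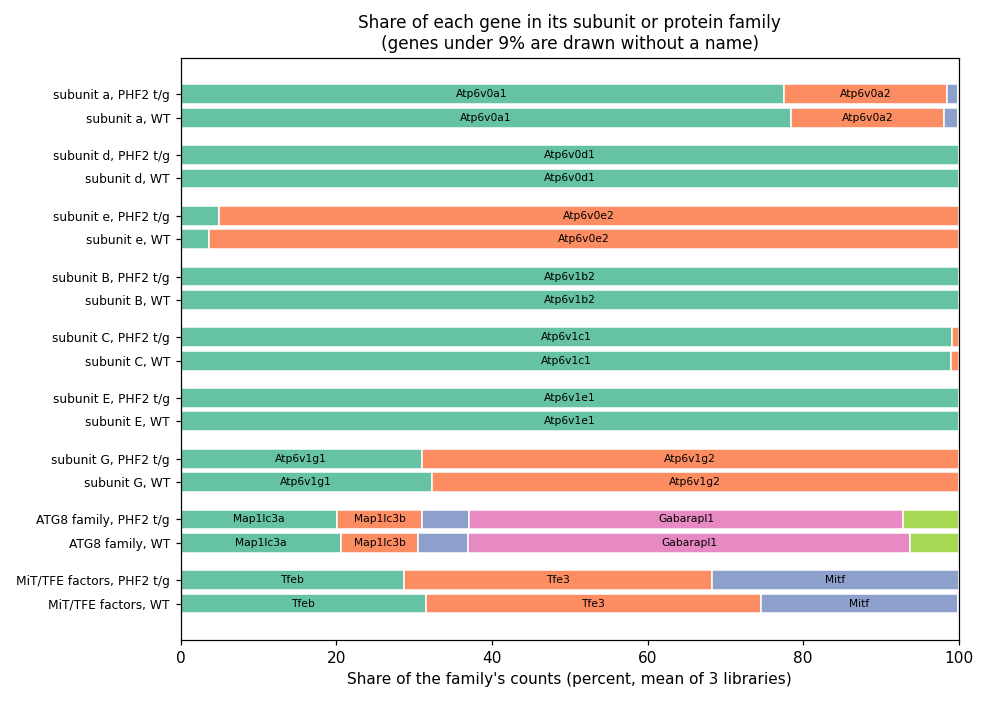
Share of the counts of each V-ATPase subunit, the ATG8 family and the MiT/TFE factors that came from each gene, in percent, as the mean of 3 libraries per group. Bars start at 0 and add to 100. Atp6v0e2 fills over 95% of the subunit e bar in both groups and Gabarapl1 over 55% of the ATG8 bar.

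PHF2 t/g was compared with WT gene by gene, to ask which of these mRNAs differ between the genotypes. Of the 43 genes, 0 were higher, 3 were lower and 40 did not pass the test (edgeR's quasi-likelihood test, Benjamini-Hochberg adjusted over 12831 genes, threshold 0.05). Over all genes tested, 2.27% passed in either direction, 0.779% higher and 1.49% lower. DESeq2 and limma-voom also called 0 of the 43 higher, while at an unadjusted p under 0.05 edgeR gave 2 higher and 8 lower, 10 in all, where 6.72% and 7.95% of all genes did so (14.7% in all). The libraries of the groups did not overlap for 10 of the 43, against 20.6% of all genes. The genes past the test were Atp6v0e2, Atp6ap1 and Ctsz. The median log2 fold change of the 43 genes was −0.03, from −0.49 to 0.34, against 0.02 for all genes tested, and 27 of 43 were below 0, where 46.1% of all genes were. The balance about 0 rests on the scaling: with library size alone, which moves the median of all genes to 0.12, the median of the 43 was 0.07 and 16 were below 0. The median of the 43 less that of all genes was −0.0535 as reported and −0.0529 with library size alone. It was −0.0004 with cyclic loess (a scaling that removes trends with level) in limma-voom.

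**Figure D3:**
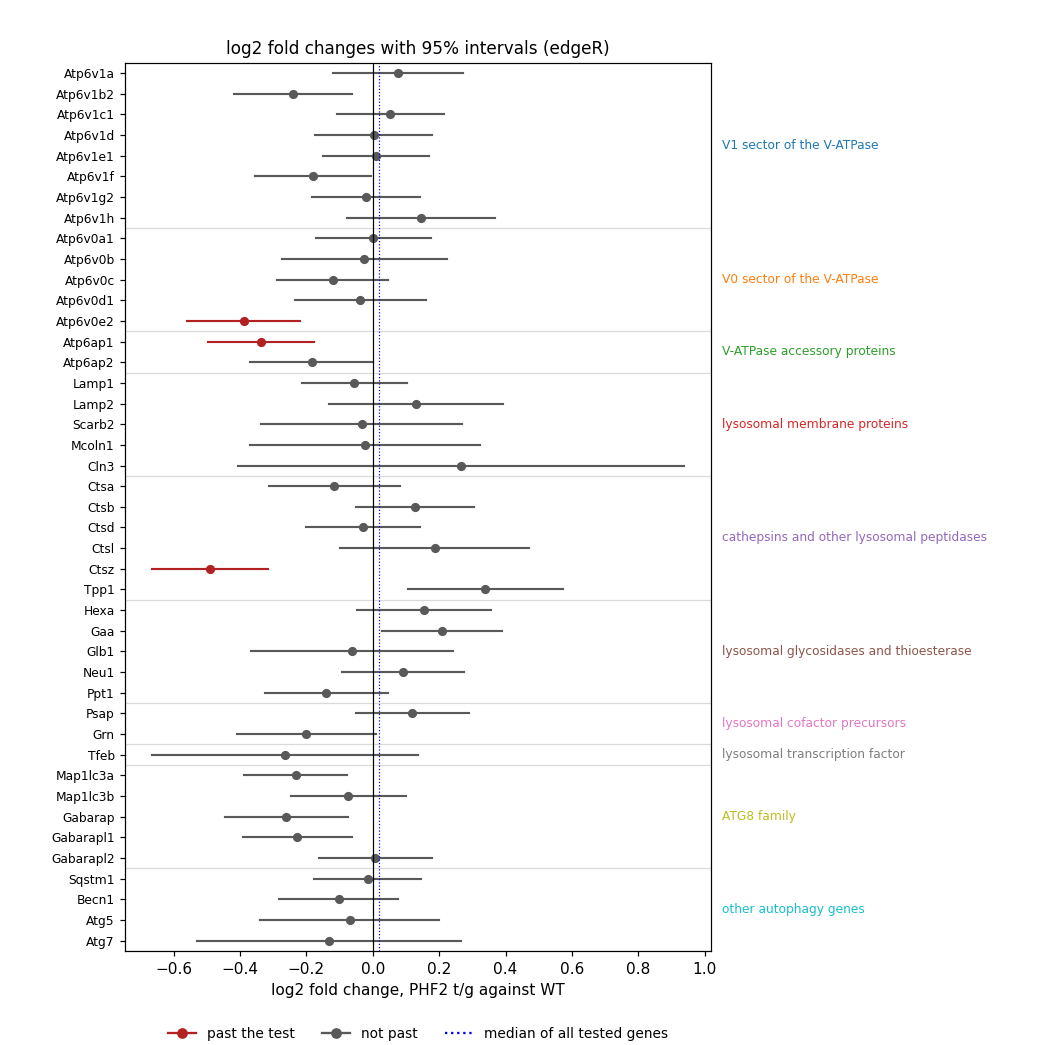
The log2 fold change of each gene, PHF2 t/g against WT, with its 95% interval from edgeR (n = 3 per group). Red marks genes past the test, and the dotted line is the median of all tested genes at 0.02. Atp6v0e2, Atp6ap1 and Ctsz lie lowest, between −0.49 and −0.34.

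Atp6v0e2 was the gene that gave most of the subunit e tags (chromosome 6, 48537569 to 48541801, GRCm38, plus strand). Its level was 611, 658 and 674 CPM in the PHF2 t/g libraries and 820, 932 and 792 CPM in the WT libraries. All PHF2 t/g libraries were below all WT libraries. On the log2 scale the difference was −0.39 (SE 0.0814; edgeR adjusted p = 0.0157). The call was lost in 5 of 16 other fits: without PHF2 t/g replicate 1 (adjusted p = 0.176), without PHF2 t/g replicate 2 (0.0929), without PHF2 t/g replicate 1 and WT replicate 2 together (0.0866), with library size alone (0.0655) and with cyclic loess in limma-voom (0.0994). The sign was the same in all 16.

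Atp6ap1 (also known as Ac45) encodes an accessory protein that binds the V0 sector during assembly (chromosome X, 74297097 to 74304721, plus strand). It was at 700.5, 745 and 762 CPM in PHF2 t/g and 988, 918 and 882 CPM in WT. The groups did not overlap. On the log2 scale the difference was −0.34 (SE 0.0767; edgeR adjusted p = 0.0258). The call was lost in 8 of 16 other fits, all with the same sign. These were the fits without PHF2 t/g replicate 1 (adjusted p = 0.212), PHF2 t/g replicate 2 (0.126), PHF2 t/g replicate 3 (0.0675), WT replicate 1 (0.0797), or PHF2 t/g replicate 1 and WT replicate 2 together (0.0628), with library size alone (0.104), with a fit that was not robust (0.056), and with cyclic loess in limma-voom (0.190). In the last the log2 difference was −0.20.

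Ctsz encodes cathepsin Z, a carboxypeptidase that is abundant in microglia (chromosome 2, 174427494 to 174439039, minus strand). Its row was at 133, 138 and 119 CPM in PHF2 t/g and 184, 189 and 174 CPM in WT. The groups were well apart, and the log2 difference was −0.49 (SE 0.083; edgeR adjusted p = 0.00324). It passed in all 16 other fits, with adjusted p from 1.137e-05 to 0.04395. The row cannot be given to Ctsz alone. The last 500 bases of Ctsz overlap Nelfcd, a subunit gene of the NELF complex that pauses RNA polymerase, on the opposite strand. In every library Nelfcd had 1.04 to 1.13 times the counts of Ctsz, and it was lower by about the same amount (log2 fold change −0.48; edgeR adjusted p = 0.00452). The sources used here do not say if counting was strand-aware, so the tags of these genes cannot be told apart. Of 8 microglial markers none passed the test in either direction with edgeR (1 higher and 2 lower at an unadjusted p under 0.05), and none was at 0. Their summed level was 299 to 318 CPM in PHF2 t/g libraries against 298 to 379 in WT libraries, and its part in the Ctsz value was not tested.

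**Figure D4:**
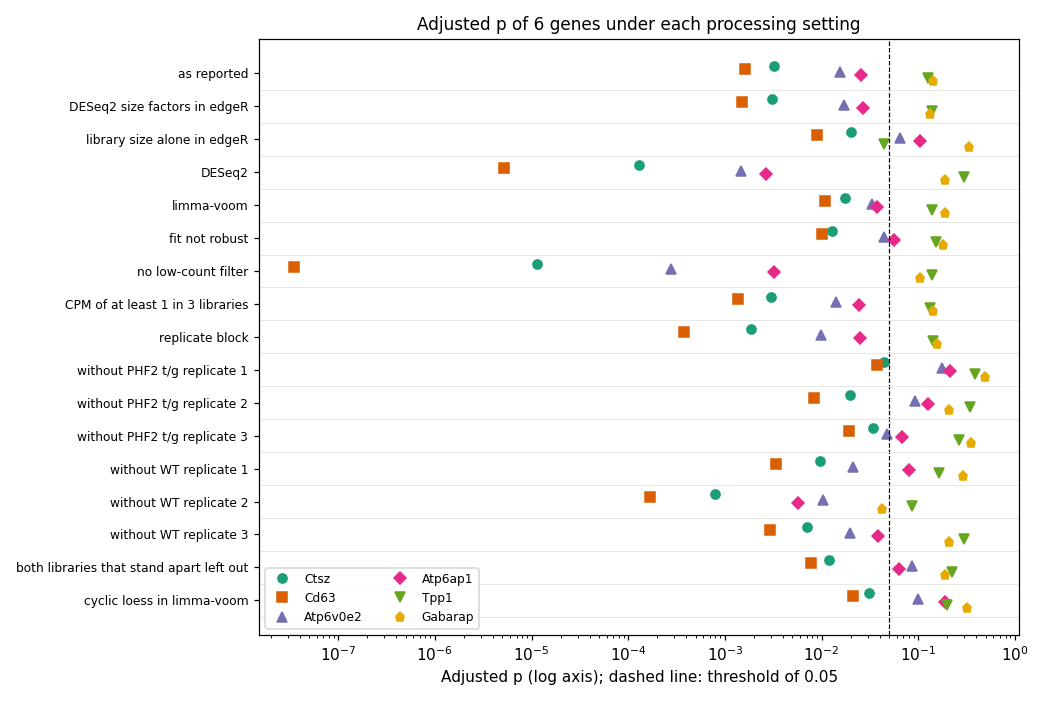
Calls under each processing setting, as the adjusted p of 6 genes on a log axis, with the threshold of 0.05 dashed. Ctsz and the pathway gene Cd63 stay left of the line in every setting. Atp6v0e2 and Atp6ap1 cross it in 5 and 8 of the 16 settings other than the reported one.

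In the V1 sector none of 8 genes passed the test in either direction with edgeR (0 higher and 2 lower at an unadjusted p under 0.05), and their median log2 fold change was 0.01. Atp6v1b2 had the smallest p of the sector. It was at 1274, 1427 and 1173 CPM in PHF2 t/g and 1415, 1589 and 1573 in WT. The groups overlapped, and the log2 fold change of −0.24 did not pass (SE 0.0847; edgeR adjusted p = 0.161). Atp6v1a, the catalytic A subunit, was at 1052, 936 and 782 CPM against 850.5, 903 and 876, a log2 fold change of 0.08 within the spread of the PHF2 t/g libraries. Atp6v1f, a stalk subunit, had a log2 fold change of −0.18 (edgeR adjusted p = 0.324), and the other 5 V1 genes lay between −0.02 and 0.15.

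The V0 genes other than Atp6v0e2 did not pass. Atp6v0c, whose protein forms the proton-carrying ring, was at 787, 791 and 843 CPM in PHF2 t/g and 904, 934 and 795 in WT, with a log2 fold change of −0.12 (SE 0.0799; edgeR adjusted p = 0.519). Its row was almost the same as that of the pseudogene Atp6v0c-ps2. The rows held 35849 and 35848 counts in all and were identical in 5 of 6 libraries, so the tags cannot be assigned to one of them. Atp6v0a1, Atp6v0b and Atp6v0d1 had log2 fold changes of 0.002, −0.03 and −0.04. Atp6ap2, the other accessory gene, also known as the prorenin receptor, was at 906, 1009 and 855 CPM against 933, 1145 and 1067. The groups overlapped, with a log2 fold change of −0.18 (SE 0.088; edgeR adjusted p = 0.343).

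Lysosomal membrane genes showed no call among 5 (edgeR, 0 at an unadjusted p under 0.05), with a median log2 fold change of −0.02. Lamp1, the most abundant of them and a major glycoprotein of the lysosomal membrane, was at 247, 233 and 248.6 CPM in PHF2 t/g and 248, 263 and 246 in WT. These levels overlapped, and the log2 fold change was −0.06 (SE 0.0757). Lamp2 was at 43.04 ± 1.70 CPM against 39.6 ± 7.40, Scarb2, the receptor that carries glucocerebrosidase, at 15.7 ± 1.23 against 16.1 ± 0.717, and the calcium channel gene Mcoln1 at 17.8 ± 4.04 against 17.9 ± 0.872 (SD, n = 3). Cln3, with 131 counts over all libraries, had a log2 fold change of 0.27 with a 95% interval of −0.41 to 0.94, the widest interval of the 43 genes.

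Among the 6 peptidase genes Ctsz was the only one past the test, and the largest positive fold change belonged to Tpp1. Tpp1 encodes tripeptidyl peptidase, whose loss causes late-infantile Batten disease. It was at 37.6, 38.5 and 36.8 CPM in PHF2 t/g and 30.8, 30.9 and 27.5 in WT. All PHF2 t/g libraries were above all WT libraries, but the log2 fold change of 0.34 (SE 0.111) did not pass (edgeR adjusted p = 0.127). It did pass with library size alone (adjusted p = 0.0441). Ctsd, the aspartic protease cathepsin D and the most abundant of this role, was at 339, 340 and 366 CPM against 361, 384 and 320, a log2 fold change of −0.03. Ctsb, Ctsl and Ctsa had log2 fold changes of 0.13, 0.19 and −0.12. The Ctsa row is uncertain, since Pltp, which overlaps its end on the opposite strand, had 0.852 to 0.919 times its counts in every library. Fdft1 overlaps the end of Ctsb in the same way and had 0.617 to 0.867 times its counts.

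Of the 5 glycosidase and thioesterase genes none passed in either direction with edgeR (1 higher and 0 lower at an unadjusted p under 0.05), and the PHF2 t/g libraries of Hexa, Gaa and Neu1 lay above all WT libraries. Over all genes 10.1% had such groups with PHF2 t/g higher. Gaa, the acid glucosidase that clears glycogen, was at 157, 148 and 133 CPM in PHF2 t/g and 118, 132 and 129 in WT, a log2 fold change of 0.21 (SE 0.0867; edgeR adjusted p = 0.256). Hexa, which degrades GM2 ganglioside, was at 57.1 ± 0.547 CPM against 51.3 ± 1.23 and the sialidase Neu1 at 91.3 ± 1.55 against 85.6 ± 4.40 (SD, n = 3). Ppt1, a palmitoyl thioesterase and the most abundant gene of this role in WT, was at 139 ± 14.6 CPM against 153 ± 7.60. Its row is uncertain, since Cap1, which overlaps the end of Ppt1 on the opposite strand, had 0.534 to 0.618 times the counts of Ppt1. Glb1, beta-galactosidase, was at 17.7 ± 2.04 against 18.3 ± 1.34, and its row is uncertain because the overlapping gene Tmppe had 0.892 to 1.33 times its counts.

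The cofactor precursor genes had fold changes of opposite sign, neither past the test. Psap, the precursor of the saposins that help sphingolipid hydrolases, was at 867, 730 and 749 CPM in PHF2 t/g and 696, 750 and 714 in WT, with PHF2 t/g replicate 1 highest (log2 fold change 0.12; SE 0.0813). Grn, the progranulin gene, was at 92.5, 88.8 and 97.5 CPM against 121, 107 and 92.0, with overlapping groups and a log2 fold change of −0.20 (SE 0.0997; edgeR adjusted p = 0.363). Fam171a2, which overlaps the end of Grn on the opposite strand, had 4.76 to 6.67 times its counts and a log2 fold change of −0.32 (edgeR adjusted p = 0.0561). Tfeb, the transcription factor, was at 8.77, 14.9 and 10.5 CPM against 13.7, 14.8 and 12.1. The PHF2 t/g libraries spanned the whole WT range, and the 95% interval of its log2 fold change ran from −0.67 to 0.14 (edgeR adjusted p = 0.568).

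The ATG8 genes had the lowest median of any role with more than 2 genes, at −0.23, and 0 of 5 passed in either direction (edgeR; 0 higher and 3 lower at an unadjusted p under 0.05). Their median was −0.13 with library size alone and −0.09 with cyclic loess in limma-voom. Gabarapl1 was at 986, 943 and 950.1 CPM in PHF2 t/g and 1105, 1223 and 1041 in WT (log2 fold change −0.23; SE 0.0785; edgeR adjusted p = 0.153). Map1lc3a, which encodes LC3A, was at 364, 341 and 336 CPM against 408, 416 and 399.9 (log2 fold change −0.23; SE 0.0742; edgeR adjusted p = 0.118). Gabarap was at 101, 114 and 102 CPM against 136, 118 and 127 (log2 fold change −0.26; SE 0.0881; edgeR adjusted p = 0.142). For each of these genes all PHF2 t/g libraries lay below all WT libraries, as for 10.4% of all genes tested. Gabarap passed only without WT replicate 2 (adjusted p = 0.0418). Map1lc3b, the gene of the widely used autophagosome marker LC3B, was at 185, 182 and 191 CPM against 189, 217 and 182, with overlapping groups and a log2 fold change of −0.07. Gabarapl2 was at 131, 124 and 118 CPM against 122, 122 and 128, with a log2 fold change of 0.01 and a 95% interval of −0.16 to 0.18.

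The other 4 autophagy genes lay between −0.13 and −0.01, all below 0 (2 of 4 with library size alone), and none passed (edgeR; 0 at an unadjusted p under 0.05). Sqstm1, the receptor p62 that is itself degraded by autophagy, was at 152, 158 and 154 CPM in PHF2 t/g and 157, 160 and 152 in WT. The levels were nearly the same in all 6 libraries, and the 95% interval of the log2 fold change was −0.18 to 0.15. Becn1, a subunit gene of the lipid kinase complex that starts autophagosomes, was at 183 ± 14.1 CPM against 196 ± 15.5. Its row is uncertain too, since the overlapping gene Cntd1 had 0.9751 to 0.9793 times its counts in every library. Atg5 and Atg7, needed to attach ATG8 proteins to lipid, were at 21.9 ± 0.219 against 23.1 ± 2.15 CPM and 8.33 ± 0.190 against 9.08 ± 1.49 (SD, n = 3).

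The precision of the 40 genes that did not pass can be read from their intervals. For 36 of 40 the 95% interval of the log2 fold change lay within ±0.5, a 1.41-fold change. The exceptions were Cln3, Tpp1, Tfeb and Atg7, and with a bound of ±1 all 40 lay within. With a bound of ±0.25, a 1.19-fold change, only 11 of 40 did. The log2 differences of the 3 genes past the test were themselves smaller in size than 0.5. Fold change went with level in this data set. Over all 12831 genes the Spearman correlation of log2 fold change with mean level was −0.23, and over the 43 genes it was −0.33, given as descriptions across genes of the same 6 libraries. In the most abundant 20% of genes the median of all genes was −0.07 and 4.48% were lower, and the 30 of the 43 genes there had a median of −0.06. Atp6v0e2, Atp6ap1 and Ctsz all lay in that class. With cyclic loess, a scaling that removes trends with level, in limma-voom the median of the 43 was 0.01 and 1 of them (Ctsz) was past the test. With TMM in limma-voom the median was −0.04 and 3 were past it.

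**Figure D5:**
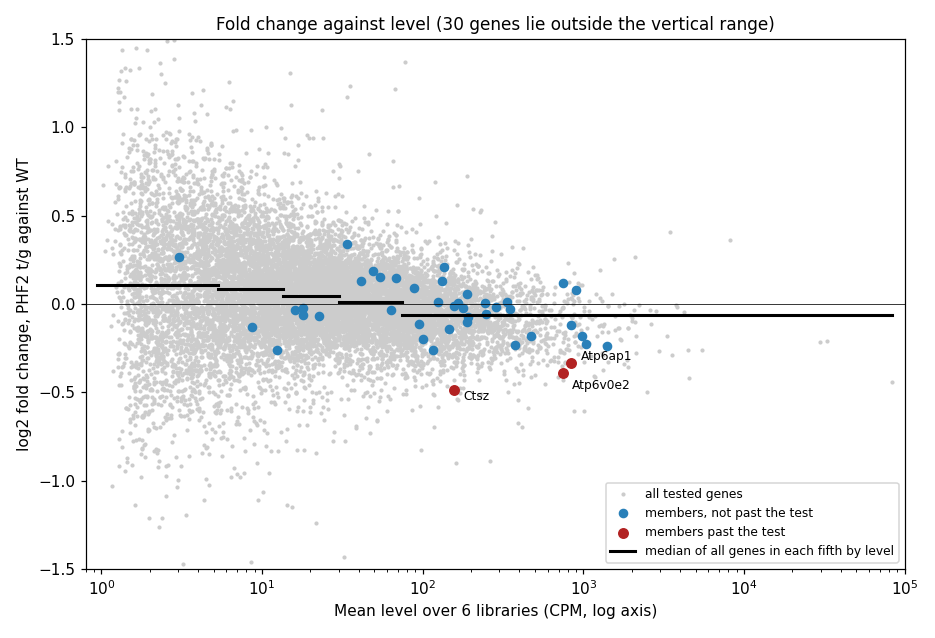
The log2 fold change of each tested gene against its mean level over 6 libraries (CPM, log axis). Grey points are all genes. Of the 43 genes, blue points are the 40 not past the test and red points the 3 past it. Black lines give the median of all genes in each of 5 classes by level. The black lines step down from 0.11 at the lowest levels to −0.07 in the highest, where most of the coloured points lie.

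Promoters of the 43 genes were searched because TFEB and its relatives are known to bind CACGTG-type sites. The promoter was taken as 250 bases before to 50 bases after the start site from RefSeq (GRCm38.p6), and 37 of 43 genes matched. The motif CACGTG, which reads the same on both strands, was in 13 of 37 promoters (35.1%). It was in the promoters of 11.9% of the 9756 tested genes with a promoter sequence and 8.09% of all 27025 genes with one. Its longer form TCACGTGA, which contains the shorter one, was in 6 of 37 (16.2%), against 2.19% and 1.12%. None of the 3 genes past the test held either motif in this window. The median log2 fold change was −0.03 for the 13 genes with CACGTG and −0.05 for the 24 without. A match describes letters only, and binding was not measured.

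The promoters below are shown as examples with the longer motif or several copies of the shorter one. Ctsd, which also holds the longer motif, and Atp6v0b, with 2 copies of the shorter one, are not printed. Each is written 5′ to 3′ on the strand of its gene with 10 bases or so on either side, and capitals mark the motif. Atp6v1a lies at chr16:44139374-44139401 on the minus strand, Atp6v0d1 at chr8:105566051-105566078 on the minus strand, Ctsa at chr2:164833750-164833794 on the plus strand, Mcoln1 at chr8:3500437-3500490 on the plus strand, Cln3 at chr7:126583341-126583396 on the minus strand, and Lamp1, with 4 copies, at chr8:13159089-13159162 on the plus strand.
Atp6v1a: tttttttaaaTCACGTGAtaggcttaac
Atp6v0d1: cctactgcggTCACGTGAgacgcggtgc
Ctsa: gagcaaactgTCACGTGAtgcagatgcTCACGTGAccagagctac
Mcoln1: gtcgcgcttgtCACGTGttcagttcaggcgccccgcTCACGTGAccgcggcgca
Cln3: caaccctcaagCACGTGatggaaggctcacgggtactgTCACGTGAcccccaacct
Lamp1: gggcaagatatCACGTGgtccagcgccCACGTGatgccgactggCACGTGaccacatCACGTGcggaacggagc
The log2 fold changes of these 6 genes lay between −0.12 (Ctsa) and 0.27 (Cln3), and none passed the test.

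The rest of the pathway was read from 10 further lists of 159 genes, of which 148 were tested. With edgeR 0 were higher and 1 was lower (DESeq2 and limma-voom also called 0 higher), and 10 were higher and 7 lower at an unadjusted p under 0.05. Of all genes tested, 0.779% were called higher and 1.49% lower, and 6.72% and 7.95% at the unadjusted p. The median log2 fold change of the pathway genes was 0.05 and 55 of 148 were below 0, against 0.02 and 46.1% for all genes. With library size alone the median of these genes was 0.15, against 0.12 for all genes, and 29 were below 0. The gene past the test was Cd63, a tetraspanin of late endosomes, lysosomes and exosomes. It was at 317, 348 and 290.3 CPM in PHF2 t/g and 454, 504 and 436 in WT, far apart, with a log2 fold change of −0.55 (SE 0.0852; edgeR adjusted p = 0.00161). Cd63 passed in all 16 other fits, and no gene in the files lay within 500 bases of it.

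Each other list is represented by its gene with the smallest p. Npc2, which hands cholesterol to NPC1, was at 82.7, 80.1 and 84.95 CPM in PHF2 t/g and 100.1, 104 and 99.7 in WT (log2 fold change −0.29; edgeR adjusted p = 0.0829). Gnptg, a subunit of the enzyme that begins the mannose 6-phosphate sorting tag, was at 38.6 ± 1.16 CPM against 28.4 ± 6.71 (log2 fold change 0.45; edgeR adjusted p = 0.121). Rraga, the RagA GTPase that brings mTORC1 to lysosomes, was at 887 ± 77.4 against 1051 ± 19.8 CPM (log2 fold change −0.24; edgeR adjusted p = 0.124). None of these 3 genes passed, and their groups did not overlap. The groups of Atg3, Atg2b and Calcoco1, given next, did not overlap either. Of the 148 tested genes of these lists 26 had groups that did not overlap, against 20.6% of all genes. Atg3, the enzyme that passes ATG8 proteins to lipid, was at 25.2 ± 1.27 against 19.6 ± 1.88 CPM (log2 fold change 0.37), and Atg2b, a lipid transfer protein, at 56.7 ± 1.83 against 48.5 ± 4.13 (0.23). The receptor gene Calcoco1 was at 5.57 ± 1.017 against 8.61 ± 1.81 CPM (log2 fold change −0.64), and Vps39, of the HOPS tethering complex, at 18.0 ± 2.15 against 14.5 ± 1.72 (0.32). Of the V-ATPase genes outside the 43, Atp6v1g1 had a log2 fold change of −0.11 and the assembly factor Ccdc115 one of −0.10, and neither list held a gene at an unadjusted p under 0.05.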

How the data were processed

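For each library the authors deposited a table of raw counts by gene symbol. Trizol RNA went into QuantSeq libraries, per the labels' protocols. The submitters' processing notes name Bowtie2, edgeR and build mm10. The sources used here do not give versions, the counter, the annotation or the use of strand. Groups and replicate numbers come from the sample titles.

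Genes were kept by filterByExpr, scaled by TMM and tested with edgeR 4.0.16 in R 4.3.3 (robust quasi-likelihood fit, genotype as the only term), with adjustment over 12831 of 23282 rows. The 43 genes, the lists and the alternatives were chosen with earlier results of these data known. Genes named are those past the test, the smallest p and the most abundant in each role, all ATG8 genes, the subunit isoforms and the smallest p of each further list. Others were named after their values were seen, as were the overlapping rows, the properties of genes and the motif search. Alternatives used DESeq2 1.42.0 and limma 3.58.1. Overlaps were sought within 500 bases of each gene in RefSeq annotation (GRCm38.p6), and a row outside the gene was called alike where every library agreed within 1%. The procedure was tested on simulated data. Library totals were 5512171 to 8844718 counts. The 95% intervals come from the fit and include the spread between libraries.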

Additional observations from a re-analysis of the deposited data

How the results depend on the processing

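Settings were changed one at a time, with some exceptions. DESeq2 used its own scaling and test on all 18294 rows with a count, and gave no adjusted p for 8159 of them. Cyclic loess was run in limma-voom, so that scaling and test both changed. In 1 fit 2 libraries were left out together. The count of the 43 genes past the test was 3 as reported, 1 without both libraries that stand apart (WT replicate 2 and PHF2 t/g replicate 1), 1 with cyclic loess (a setting chosen after seeing the data) and 1 to 4 when 1 library was left out. It was 1 without PHF2 t/g replicate 1 or PHF2 t/g replicate 2. Their median log2 fold change of −0.03 moved to 0.0685 with library size alone and 0.0110 with cyclic loess, and ranged from −0.07 to −0.001 with 1 library left out. The count of further pathway genes was 1 as reported, 2 with no low-count filter (Gnptg added) and 2 at a threshold of 0.10 (Npc2 added), and 1 to 2 with 1 library left out, being 2 without WT replicate 3. The cause of these changes was not tested. Of 748 values of single genes under other settings, 55 had the other sign with neither value past the threshold. The 748 include the reported fit read at the threshold of 0.10, where no sign can change. The 55 were in 18 genes whose reported log2 fold changes were at most 0.19 in size, and 0 calls reversed.

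Same-numbered libraries correlated in their deviations at −0.004, 0.123 and 0.085, and differently numbered ones at −0.126 to 0.067. As all these values were low, the numbers were not taken to pair the libraries. With the replicate number as a block, 3 of the 43 genes and 1 further pathway gene passed, their median was −0.04, and 299 genes passed over all genes, against 291. Over all genes, 606 passed with no low-count filter, 547 at a threshold of 0.10, 149 with a fit that was not robust, and in limma-voom 162 with TMM and 116 with cyclic loess. Leaving out each library in turn gave 49 to 392. With library size alone 207 were higher and 70 lower, against 100 and 191 as reported.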
